A study of Homo sapiens with 11 samples.

Results

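The box H/ACA small nucleolar RNAs (symbols beginning with SNORA) and the small Cajal body RNAs (scaRNAs, symbols beginning with SCARNA) were read from human Clariom D microarrays of the human prostate cancer line PC3. A member was any symbol of either kind that the platform annotation gave as the only symbol of a probe set, and each member was read from its probe set with the highest mean over all arrays. This gave 95 members, 74 SNORA and 21 SCARNA, among 33616 genes named in the same way. The 11 arrays held 1 array per condition. The first 8 conditions were siHOXB13, siHOXA11, siHOXA11-AS and siNC, each at 24 h and at 48 h after transfection of siRNA against the homeobox transcription factors HOXB13 and HOXA11, against the antisense lncRNA of HOXA11, or of a control siRNA. The other 3 conditions were shIBSP(1), shIBSP(2) and shNC at 48 h, where IBSP is integrin-binding sialoprotein, a bone matrix protein. The titles of these last arrays say sh while other fields of their labels and the list of siRNAs say siRNA, so the kind of agent is not settled here. All 11 conditions were the same unmodified line. The methods say in general that experiments were repeated, but no source ties the arrays to separate repeats. The spread behind every p-value therefore lies between arrays of different conditions and may otherwise be technical.

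H/ACA snoRNAs are short nuclear RNAs that fold into hairpins and guide the conversion of chosen uridines of ribosomal RNA to pseudouridine. Each works in a particle with dyskerin (DKC1), which carries out the reaction, and with NOP10, NHP2 and GAR1. The scaRNAs do the same kind of work for the small nuclear RNAs of the spliceosome, in the Cajal body. Some scaRNAs have the H/ACA fold, some the box C/D fold that guides ribose methylation, and some both. Most members of both classes are cut out of introns of host genes, many of which make ribosomal, nucleolar or translation proteins, so the snoRNA and the host message come from 1 transcript.

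The siRNAs of the study are shown because they define the conditions. Their target sequences on the transcripts, each 23 bases and in the direction the study lists them, taken as 5′ to 3′, are given on a line each, and nothing is capitalised because no part was examined.
siHOXA11-AS (1): gagtgtatttccttttatcgtca
siHOXB13 (1): ttcatgaattgagctaattatga
siHOXA11 (1): aagataaatattatattatatat
siHOXA11-AS (3): ttcttgtttttccaaacttcaag
siHOXB13 (2): gagctaattatgaataaatttgg
siHOXA11 (2): ttcaaaaaacttgtaaataaagg
siHOXA11-AS (2): cggctaacaaggagatttggtca
The knockdowns combined siRNAs against 2 sequences of a target, and the list holds 2 each for HOXB13 and HOXA11. Of the 3 for HOXA11-AS, the sources do not say which were combined on the arrays. The sequences of the members themselves were not used here.

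The arrays resembled each other closely, with correlations between 0.964 and 0.987 over all probe sets. HOXB13, the check of the labels, had a log2 intensity of 8.09 with siHOXB13 and 10.10 with siNC at 24 h, but 10.36 on the 48 h array labelled siHOXB13 and 8.52 on the 48 h array labelled siNC. The targeted gene thus goes against the labels of these 2 arrays at 48 h, so a direction that rests on them is uncertain, and the fitted differences that rest on them are also given without them. The epithelial markers KRT8, KRT18 and EPCAM were bright on all 11 arrays, between 12.91 and 17.01, and KLK3, the gene for prostate-specific antigen, lay between 5.57 and 6.57. A further epithelial marker, CDH1, varied more, between 10.56 and 14.52. It had 13.49 with siHOXB13 and 10.56 with siNC at 24 h, and 11.35 and 13.40 on the arrays labelled so at 48 h. The siHOXA11 array at 48 h stood apart from the rest: 15.04% of the 16808 genes tested lay at least 2-fold from their median on the other arrays, against 1.47% to 6.515% on each of the other 10 arrays.

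The members ranged from among the brighter RNAs of the array down to the level of background. All levels are log2 intensities, and a difference of 1 is 2-fold. Probe sets differ in how well they bind, so a higher intensity of 1 member than another is a rank on the array and not an amount of RNA. The 23 background probe sets, whose probes match no human sequence and are grouped by their count of G and C bases, had a median between 3.26 and 3.32 on each array. Their intensity ran strongly with base composition, with means between 8.98 for the class with 3 such bases and 2.33 for the class with 25. The brightest of them lay between 7.70 and 9.66 and served as a strict limit. On all 11 arrays 13 members, 8 SNORA and 5 SCARNA, exceeded it, and between 14 and 29 members did so on a single array. The 29 were on the siHOXA11 array at 48 h, where this limit was lowest (7.70). The 14 were on the siHOXA11 array at 24 h, where it was highest (9.66). With the 95th percentile of the background probe sets as the limit, 22 members passed on all 11 arrays, and between 25 and 31 on a single array.

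**Figure D1:**
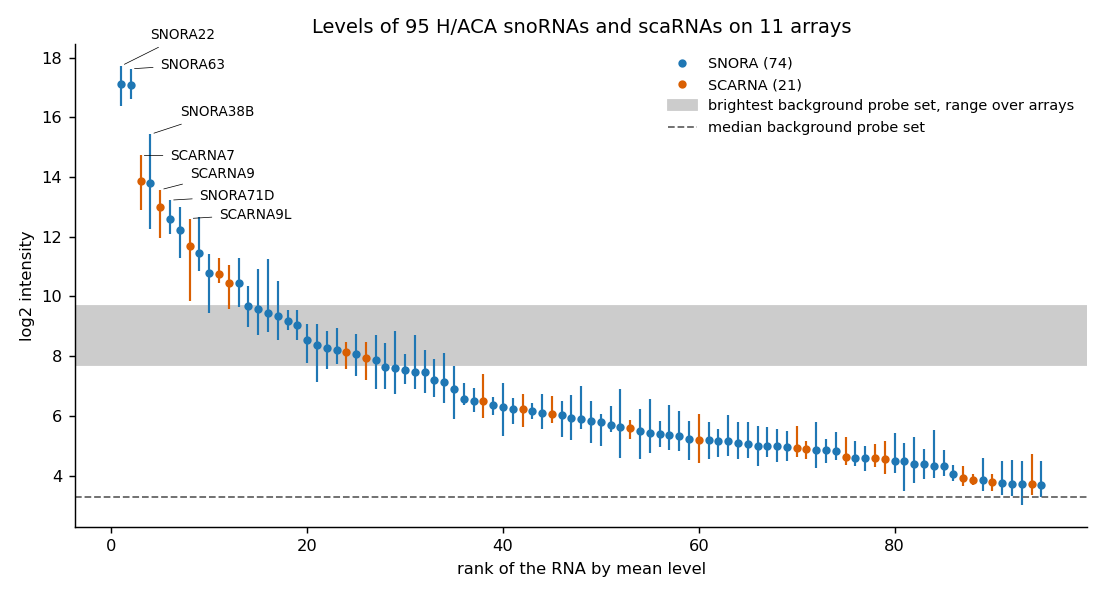
Level of each of the 95 members, ranked along the x axis by mean log2 intensity over 11 arrays (y axis). Points are means, vertical lines run between the lowest and the highest array, blue marks the 74 SNORA and orange the 21 SCARNA, the grey band spans the brightest background probe set over the arrays (7.70 to 9.66), and the dashed line is the median background probe set. The 13 brightest members lie above the band and the dimmest near the dashed line.

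By class, 10.8% of SNORA and 23.8% of SCARNA exceeded the brightest background probe set on every array. The share was 15.1% of 152 SNORD genes (box C/D snoRNAs), 0.805% of 1490 microRNA genes, 4.08% of 1742 genes named RNU (spliceosomal RNAs and their many copies) and 12.1% of all named genes. The median level was 5.92 for SNORA and 5.59 for SCARNA, against 4.90 for all named genes, 4.97 for SNORD and 4.003 for microRNAs. Each symbol was read from its brightest probe set. The 95 members had 353 probe sets to choose from, against 36176 for all 33616 named genes. These levels and shares are therefore not compared like for like, and the choice favours the members. The array thus carried signal for a part of both classes. Tests were made over the 16808 named genes that were brightest by mean level, which kept 57 SNORA and 13 SCARNA, 70 members in all, and left out 25. With the mean of a symbol's probe sets in place of the brightest, 48 members were kept. The 3 dimmest members were SNORA69 at 3.69, SCARNA15 at 3.71 and SNORA20 at 3.72, near the median background. These are levels of the probe sets read, which may not be those of the named copies, as given below.

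SNORA22 and SNORA63, guides of ribosomal RNA, were the brightest members. SNORA22 had 16.94, 16.96, 16.67 and 16.98 with siHOXB13, siHOXA11, siHOXA11-AS and siNC at 24 h, and 17.48, 16.37, 17.22 and 17.10 on the arrays labelled so at 48 h. On the sh arrays it had 17.45, 17.72 and 17.40 with shIBSP(1), shIBSP(2) and shNC. SNORA63 lay between 16.61 and 17.62 with a median of 17.01, on a probe set of another chromosome than its RefSeq gene. Both were thus near the top of the scale on every array, where the file's highest value was 19.93.

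Among scaRNAs, SCARNA7, a box C/D guide for U1, had a mean of 13.87 ± 0.49 (SD, 11 arrays) and SCARNA9, a box C/D guide for U2, 13.002 ± 0.46. SCARNA9L, a relative of SCARNA9, followed at 11.70 ± 0.74. SCARNA6 and SCARNA5, which carry both kinds of box and guide changes in U5, had 10.75 ± 0.31 and 10.45 ± 0.46. SCARNA2, a guide for U2 with its own promoter, had 8.15 ± 0.29, which was 4.85 above the median background probe set. It exceeded the 95th percentile of the background probe sets on 10 arrays and the brightest of them on 2.

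Of the remaining bright SNORA, SNORA38B had 13.80 ± 0.85, SNORA71D 12.60 ± 0.32 and SNORA71C 12.24 ± 0.54. SNORA8, also read from a probe set of another chromosome, had 11.46 ± 0.55, SNORA5A 10.80 ± 0.52 and SNORA79 10.44 ± 0.44. SNORA47 at 9.67 ± 0.48 and SNORA75 at 9.59 ± 0.65 exceeded the brightest background probe set on 10 and 9 arrays. Over the 70 members tested, the range over the 11 arrays had a median of 1.34 and ran between 0.56 and 3.16. The widest was that of SNORA38B, and the next were SCARNA9L with 2.76, SNORA67 with 2.43, SNORA15 with 2.30 and SNORA75 with 2.22.

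**Figure D2:**
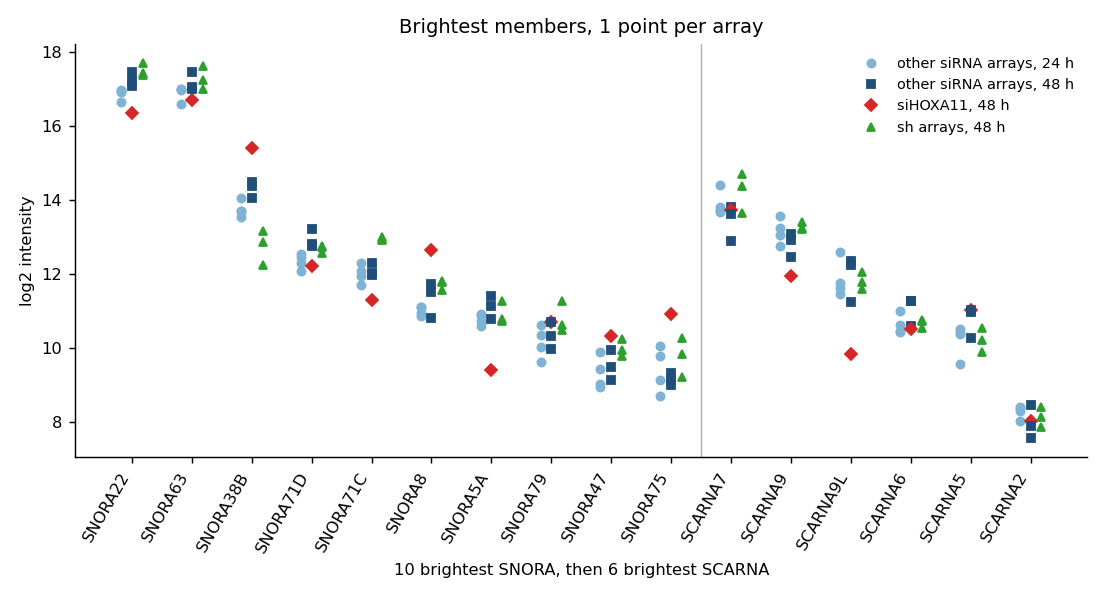
Log2 intensity (y axis) of the 10 brightest SNORA and the 6 brightest SCARNA on each of the 11 arrays, 1 point per array. Circles are siRNA arrays at 24 h, squares siRNA arrays at 48 h, triangles sh arrays and red diamonds the siHOXA11 array at 48 h, which lies at an end of the range for SNORA22, SNORA38B, SNORA71C, SNORA8, SNORA5A, SNORA47, SNORA75, SCARNA9, SCARNA9L and SCARNA5.

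What a probe set of a member measures was less certain than for most genes. The 95 symbols were carried by 353 probe sets. Of the 52 members with several, 18 had a brightest probe set more than 1 above the next, by as much as 8.81 for SNORA63. Only 56 of the 95 members had an Entrez ID beside their symbol, and all 56 lay on the chromosome where RefSeq places the gene. Of the other 39, 36 carried in their probe set's ID another chromosome than that of the RefSeq gene, SNORA63, SNORA8, SNORA67, SNORA40 and SNORA64 among them, where named genes with an Entrez ID matched in 99.9% of cases. The dimmest members, SNORA69, SCARNA15 and SNORA20, were also among these 36. The members with an Entrez ID had a median level of 6.49 and those without one 5.11. The 36 were thus placed away from the named gene, and which copy gave their signal was not tested. For the other members without an Entrez ID, the named copy and related copies elsewhere cannot be told apart. Another 54 probe sets carried a SNORA or SCARNA symbol together with other genes, mostly the host, and were not used. Their mean levels lay between 3.02 and 19.81, and 42 snoRNA or scaRNA symbols occurred only there. The probe set of RPL39 and SNORA69 had 17.43, and that of TCP1, SNORA20 and SNORA29 had 13.38. Those of SCARNA15 had 4.345 with SNHG21 and 4.09 with SCARNA4. The probe set naming EIF4A2 and SNORA63 among others had 9.41, against 17.07 for the one read as SNORA63. The one naming TAF1D, SNORA8 and SNORA40 among others had 10.82.

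Of the 56 members with an Entrez ID, 55 lay inside another gene in RefSeq, whose table used here gives no strand. The enclosing gene was protein-coding for 47, a lncRNA for 7 and a transcribed pseudogene, CCT6P1, for SNORA22. SCARNA2 lay in none. KPNA4, an importin, encloses SCARNA7, NOL11, a nucleolar protein of ribosome biogenesis, SNORA38B, and NCL, nucleolin, SNORA75. RPS12, a ribosomal protein, encloses SNORA33 and ATG16L1, of autophagy, both SCARNA5 and SCARNA6. In the 31 pairs where both passed the filter, the correlation of member and host over the 11 arrays had a median of 0.078, ran between −0.632 for SNORA38B with NOL11 and 0.736 for SNORA33 with RPS12, and was above 0.5 in 5 pairs and below 0 in 11. These values describe 11 arrays that share treatments and array effects and carry no test. Most pairs thus had a correlation below 0.5.

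The siHOXA11 array at 48 h held the highest level of the 11 arrays for 19 of the 70 members tested, 27.1%, against 12.6% of all genes tested, and the lowest level for 8, 11.4%, against 25.8% of all genes. The median distance of a member from its median on the other arrays was 0.589 there and between 0.195 and 0.352 on the other arrays, against 0.396 for all genes on the siHOXA11 array at 48 h. At least 2-fold from the median of the others were 11 members, 15.7%, near the 15.04% of all genes. Of these, 6 members were above, 8.57% against 3.05% of genes, and 5 below, 7.14% against 11.99% of genes. The share of members far from the other arrays was thus near that of genes in general, while the split between above and below differed, with no test. There is 1 such array, so whether RNA quality, hybridization or the siRNA moved with it was not tested.

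**Figure D3:**
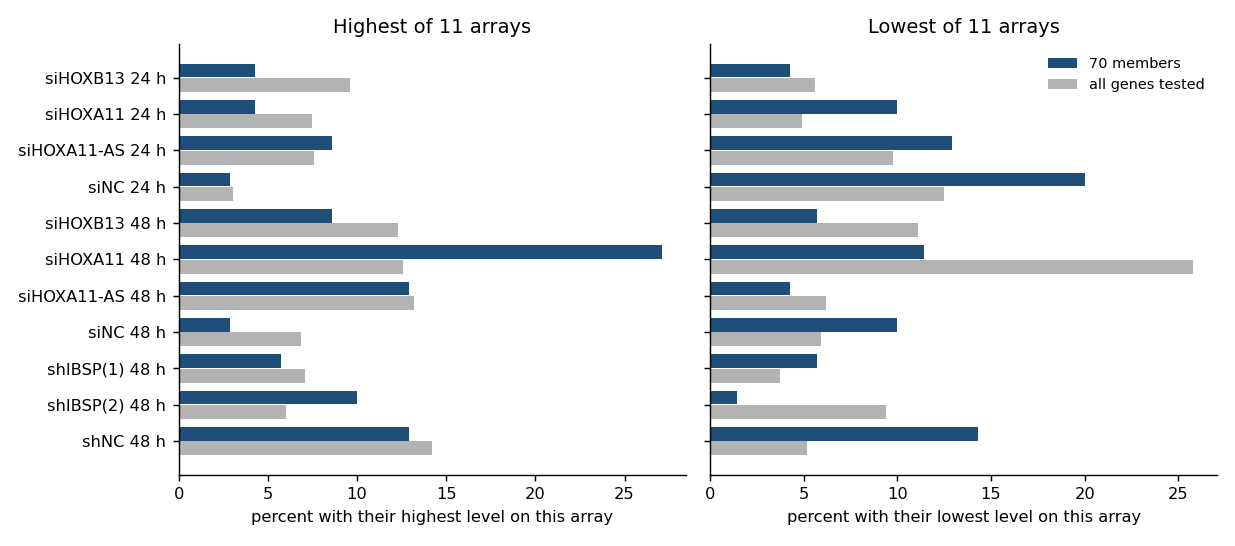
For each of the 11 arrays (y axis), the percent of the 70 members tested (dark bars) and of all genes tested (grey bars) whose highest level (left) or lowest level (right) of the 11 arrays fell on that array. The siHOXA11 array at 48 h held the highest level of 27.1% of members and 12.6% of genes, and the lowest level of 11.4% of members and 25.8% of genes.

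The first question of the design is what each siRNA changed relative to siNC. SNORA75, a guide encoded in the nucleolin gene, had the highest fitted difference with siHOXA11 and a higher level at both times. It had 10.06 with siHOXA11 and 8.72 with siNC at 24 h, and 10.93 with siHOXA11 and 9.01 on the 48 h array labelled siNC. Both siHOXA11 arrays thus lay above all other siRNA arrays, where it ran between 8.72 and 9.81, while on the sh arrays it had 9.85, 10.29 and 9.24 with shIBSP(1), shIBSP(2) and shNC. The fitted difference over both times was 1.64 ± 0.37 (SE), with an adjusted p of 0.98 by limma, and 1.69 without the 48 h arrays labelled siHOXB13 and siNC. SNORA67 had 8.82 with siHOXA11 and 8.88 with siNC at 24 h, and 11.25 with siHOXA11 and 9.09 on the 48 h array labelled siNC. Its fitted 1.05 ± 0.61 (adjusted p = 0.98) therefore came from the 48 h array alone, and was −0.21 without it. SNORA38 differed by 1.01 ± 0.31 (adjusted p = 0.98), by 0.77 at 24 h and 1.26 at 48 h. Without the 48 h arrays labelled siHOXB13 and siNC, SNORA67 had 0.63 and SNORA38 0.78.

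On the low side with siHOXA11, SCARNA9L had 11.78 with siHOXA11 and 11.46 with siNC at 24 h, and 9.85 with siHOXA11 and 12.26 on the 48 h array labelled siNC. The 48 h value was the lowest of all 11 arrays. SCARNA9L gave a fitted −1.05 ± 0.65, SNORA5A −0.93 ± 0.43 and SNORA1 −1.03 ± 0.33, each with an adjusted p of 0.98. SNORA5A differed from siNC by −0.13 at 24 h and from the 48 h array labelled siNC by −1.73, so its value came mostly from 48 h. Without the 48 h arrays labelled siHOXB13 and siNC, SCARNA9L moved to −0.35 and SNORA5A to −0.40, while SNORA1 had −1.09. SNORA1, for which the named copy is uncertain, had 5.32 with siHOXA11 and 6.46 with siNC at 24 h, and 5.46 with siHOXA11 and 6.38 on the 48 h array labelled siNC, the 2 lowest levels of the 11 arrays.

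With siHOXA11, no member of 70 passed an adjusted p of 0.05 by limma, and neither did any of the 16808 genes (0%). At an unadjusted p under 0.05 there were 4 members, SNORA75 and SNORA38 higher and SNORA1 and SCARNA10 lower, against 3.68% of genes. At 24 h, 4 members were at least 2-fold higher (3.69% of genes) and 1 at least 2-fold lower (0.976% of genes). At 48 h, 8 members were at least 2-fold higher, 11.4% against 3.9% of genes, and 5 at least 2-fold lower, 7.14% against 13.2% of genes. The 8 were SNORA67, SNORA75, SNORA8, SNORA26, SNORA38, SNORA38B, SNORA68 and SNORA42, and the 5 were SCARNA9L, SNORA5A, SCARNA22, SNORA15 and SNORA40. These counts compare 1 array with 1 array, with no replicate and no test. The median fitted difference was 0.12 for members and −0.00 for all genes. Leaving out the siNC array at 24 h gave −0.03 for members and −0.08 for genes, and leaving out the 48 h arrays labelled siHOXB13 and siNC gave 0.15 and 0.08.

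**Figure D4:**
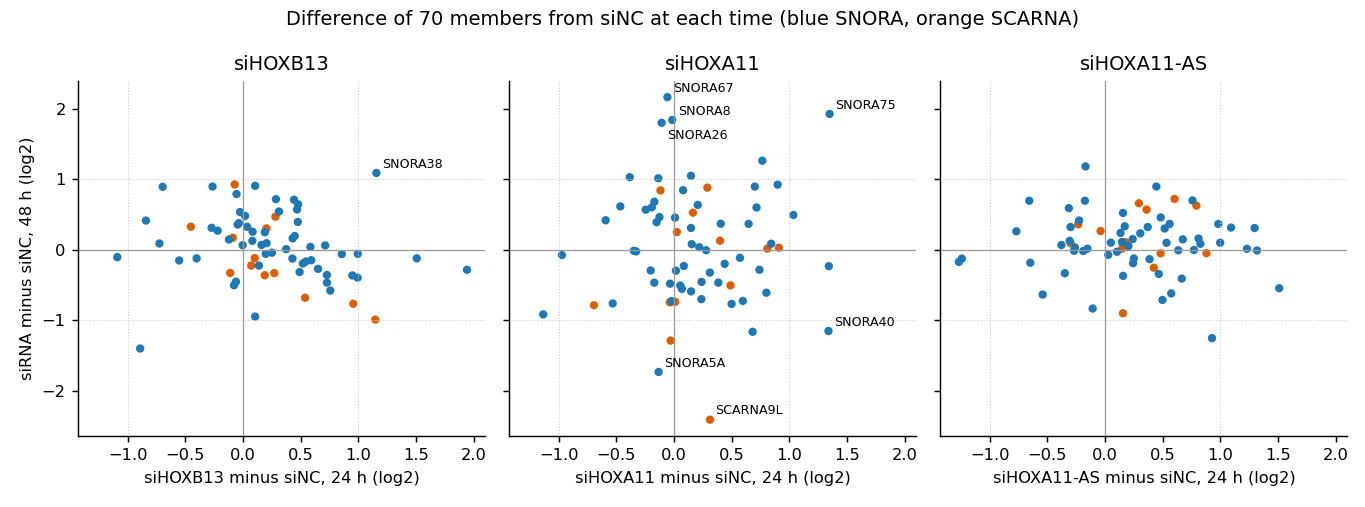
Log2 difference of each of the 70 members tested between an siRNA array and the siNC array of the same time, at 24 h (x axis) and 48 h (y axis), for siHOXB13, siHOXA11 and siHOXA11-AS. Each point is 1 member and 1 array per condition, dotted lines mark 2-fold, and the 3 panels share the siNC arrays. SNORA75 lies beyond 2-fold at both times with siHOXA11, SNORA40 lies beyond 2-fold in opposite directions with siHOXA11, and SNORA38 lies beyond 2-fold at both times with siHOXB13 as labelled. All 48 h values use the array labelled siNC, and those of siHOXB13 also the array labelled siHOXB13, whose HOXB13 levels go against their labels, so the sign of the siHOXB13 values at 48 h is uncertain.

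With siHOXA11-AS, 50 of the 70 members, 71.4%, had a positive fitted difference, and so had 60.3% of genes. By class these were 39 of 57 SNORA and 11 of 13 SCARNA. The 3 highest fitted differences were those of SNORA64 with 0.80 ± 0.35, SNORA27 with 0.73 ± 0.32 and SCARNA9 with 0.71 ± 0.36, each with an adjusted p of 1.00 by limma. SNORA64 at 24 h had 9.06 with siHOXA11-AS, against 7.77 with siNC, and 9.04 with siHOXA11-AS and 8.73 on the 48 h array labelled siNC. Most of its difference thus came from the siNC array at 24 h, where it was at its lowest of the 11 arrays. SNORA17 with −0.72 ± 0.40, SNORA25 with −0.68 ± 0.43 and SNORA51 with −0.59 ± 0.35 were at the other end, all dim members with a mean level of at most 5.49. Each of these 3 was lower at both times. On the siNC array at 24 h, SNORA17 and SNORA51 had their highest level of the 11 arrays, 5.81 and 5.80, and SNORA27 its lowest, 4.33. Of the members named here, all but SCARNA9 were read from a probe set on another chromosome than the RefSeq gene. The fit without the 2 arrays in doubt has the siNC array at 24 h as its only control. There SNORA64 had 1.30, SNORA27 0.91 and SCARNA9 0.998, and SNORA17, SNORA25 and SNORA51 had −0.93, −1.002 and −0.82.

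None of the 70 members and none of the genes (0%) passed the adjusted p with siHOXA11-AS, and 2 members, both higher, and 4% of genes had an unadjusted p under 0.05. At 24 h, 5 members were at least 2-fold higher (3.86% of genes), SNORA13, SNORA28, SNORA40, SNORA64 and SNORA75, and 2 at least 2-fold lower (1.8% of genes). At 48 h, against the array labelled siNC, 1 was at least 2-fold higher (3.68% of genes) and 1 at least 2-fold lower (2.05% of genes). The members' median was 0.13 and that of all genes 0.09. Quantile normalization gave 0.08 and 0.04, and centring every array on its median −0.01 and −0.05, with 48.6% of members and 44.5% of genes positive, so members and genes moved together under both scalings. The median turned on single arrays. Without the siNC array at 24 h it was 0.03 for members and −0.00 for genes, and without the 48 h array labelled siNC 0.30 and 0.18. Without the siHOXA11-AS array at 24 h it was 0.20 and 0.17, without that at 48 h 0.22 and 0.02, and without the 48 h arrays labelled siHOXB13 and siNC 0.30 and 0.18.

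With siHOXB13 as labelled, SNORA38, encoded in PRRC2A, had the highest fitted difference. The 48 h part of this comparison runs between the 2 arrays whose labels HOXB13 goes against, so its sign there is uncertain. SNORA38 had 8.83 with siHOXB13 and 7.68 with siNC at 24 h, and 8.66 and 7.58 on the arrays labelled siHOXB13 and siNC at 48 h. The 2 arrays labelled siNC held its 2 lowest levels of the 11 arrays, and the other siRNA arrays lay between 8.12 and 8.84. Its fitted difference was 1.12 ± 0.31 (adjusted p = 1.00 by limma) and 1.16 without the 48 h arrays labelled siHOXB13 and siNC, where SNORA40 and SNORA15 were higher. SNORA46, encoded in CNOT1, had the lowest, with 4.76 with siHOXB13 and 5.65 with siNC at 24 h, and 4.76 and 6.16 on the arrays labelled siHOXB13 and siNC at 48 h. The fitted difference was −1.15 ± 0.55 (adjusted p = 1.00), and −0.89 without those 2 arrays, at levels below the brightest background probe set.

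The other members at the ends with siHOXB13 were SNORA40 with 0.83 ± 0.56 and SNORA15 with 0.69 ± 0.50, and SNORA17 with −0.60 ± 0.40 and SNORA54 with −0.42 ± 0.38. Without the 2 arrays in doubt, which leaves the 24 h difference, SNORA40 had 1.94, SNORA15 1.51, SNORA17 −1.09 and SNORA54 0.11. These 4 values therefore rest on which arrays are taken. None of the 70 members and none of the genes (0%) passed the adjusted p, and 1 member, SNORA38, and 1.01% of genes had an unadjusted p under 0.05. At 24 h, 4 members were at least 2-fold higher (4.58% of genes) and 1 at least 2-fold lower (1.09% of genes), and at 48 h, by the labels, 1 was higher (5.22% of genes) and 1 lower (4.62% of genes). A positive fitted difference was found for 53 of the 70 members, 75.7%, and for 61.7% of genes, and the medians were 0.16 and 0.08. The 2 classes differed, with 47 of 57 SNORA positive, 82.5%, and 6 of 13 SCARNA, 46.2%. Among the other small RNA classes, 71.5% of RNU, 52.6% of SNORD and 49.4% of microRNA genes were positive. After centring every array on its median, 39 members, 55.7%, had a positive difference, against 44.5% of genes. Without the 2 arrays in doubt, 48 members, 68.6%, had a positive difference, near the 66.3% of genes, and the medians were 0.20 and 0.18. Leaving out the siNC array at 24 h gave medians of 0.03 for members and −0.02 for genes, and leaving out the siHOXB13 array at 24 h 0.10 and 0.03.

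SNORA40 differed from siNC by 1.94 with siHOXB13, 1.34 with siHOXA11 and 1.51 with siHOXA11-AS at 24 h. From the 48 h array labelled siNC it differed by −0.28, −1.15 and −0.55 on the arrays labelled so. The 3 siRNAs share the siNC arrays, and SNORA40 had its lowest level of the 11 arrays, 7.12, on the siNC array at 24 h. A difference in 1 control array therefore appears in all 3 comparisons. The siNC array at 24 h held the lowest level of 14 of the 70 members, 20.0%, against 12.5% of genes.

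The second question is what differed between 48 h and 24 h over all 4 siRNA conditions. SNORA38B had the highest fitted difference, 0.83 ± 0.29 (adjusted p = 0.70 by limma), and it was higher at 48 h with each of the 4 siRNAs. At 48 h it had 14.07 and 14.38 on the arrays labelled siHOXB13 and siNC, 15.43 with siHOXA11 and 14.49 with siHOXA11-AS. At 24 h it had 14.05 with siHOXB13, 13.56 with siNC, 13.71 with siHOXA11 and 13.71 with siHOXA11-AS. The 2 times did not overlap, although the level with siHOXB13 was nearly the same at both. SNORA11, encoded in MAGED2, followed with 0.79 ± 0.25 (adjusted p = 0.70) and SNORA8 with 0.67 ± 0.30 (adjusted p = 0.72). Lowest at 48 h were SCARNA9 with −0.56 ± 0.26, SNORA15 with −0.54 ± 0.35 and SCARNA9L with −0.44 ± 0.46. SCARNA9L had 0.06 without either of the siHOXA11 arrays. After the 48 h arrays labelled siHOXB13 and siNC were left out, SNORA38B had 1.25, SNORA11 0.95 and SNORA8 1.06, and SCARNA9, SNORA15 and SCARNA9L had −0.90, −0.63 and −0.60.

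None of the 70 members and none of the genes (0%) passed the adjusted p between the times, and 3 members, SNORA11, SNORA38B and SCARNA8, all higher at 48 h, and 7.02% of genes had an unadjusted p under 0.05. At 48 h, 48 of the 70 members, 68.6%, were higher, against 51.1% of genes, and the medians were 0.15 and 0.01. By class these were 41 of 57 SNORA and 7 of 13 SCARNA. Among the other small RNA classes, the median was 0.29 for the 639 RNU genes tested, with 78.7% higher at 48 h, 0.07 for SNORD and 0.04 for microRNA genes. Without the 48 h arrays labelled siHOXB13 and siNC, the members' median was 0.15 and that of all genes −0.03.

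The third comparison set the 3 sh arrays against the 4 siRNA arrays at 48 h. The kind of agent, the target and any day of work differed together and cannot be told apart. SNORA38B, encoded in NOL11, was lower on the sh arrays, with 12.89 with shIBSP(1), 13.18 with shIBSP(2) and 12.27 with shNC, against 14.07 to 15.43 on the siRNA arrays at 48 h and 13.56 to 14.05 at 24 h. The sh arrays thus lay below all 8 siRNA arrays. The fitted difference was −1.81 ± 0.35 with an adjusted p of 0.0452 by limma, which made SNORA38B the only member of 70 to pass in any of the 6 comparisons, where 1.01% of genes passed in this one. The arrays of each group held different treatments, so the spread behind this p includes treatment effects. The call was not stable. The adjusted p was 0.0293 without the siHOXA11 array at 48 h and between 0.0571 and 0.296 without any other of the 7 arrays. Without the 48 h arrays labelled siHOXB13 and siNC the difference was −2.18 and the adjusted p 0.126.

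SNORA71C, one of a family of SNORA71 copies in the lncRNA SNHG17, lay on the other side. It had 12.95, 12.92 and 13.01 with shIBSP(1), shIBSP(2) and shNC, against 12.04, 11.30, 12.32 and 11.997 on the arrays labelled siHOXB13, siHOXA11, siHOXA11-AS and siNC at 48 h. The sh arrays agreed within 0.1 and lay above all 8 siRNA arrays. The fitted difference was 1.05 ± 0.26 with an adjusted p of 0.132. SCARNA7 with 0.73 ± 0.32 and SCARNA9 with 0.69 ± 0.29 were the next highest, and SNORA33 with −0.92 ± 0.27 and SCARNA8 with −0.74 ± 0.27 the next lowest, with adjusted p between 0.219 and 0.473. With the 2 arrays in doubt left out, SNORA71C had 1.15, SCARNA7 0.58, SCARNA9 0.78, SNORA33 −0.88 and SCARNA8 −1.05.

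**Figure D5:**
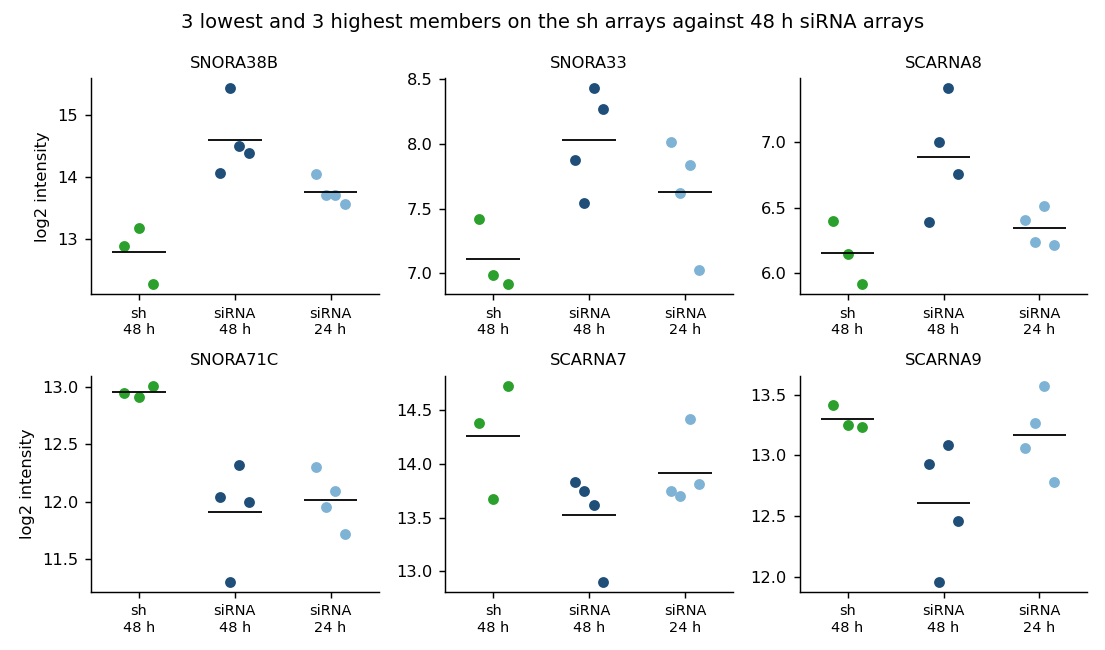
Log2 intensity (y axes, each with its own scale) of the 3 members lowest and the 3 highest on the sh arrays relative to the siRNA arrays at 48 h. Points are single arrays in 3 groups, 3 sh arrays at 48 h, 4 siRNA arrays at 48 h and 4 siRNA arrays at 24 h, and lines are group means. SNORA38B lies below and SNORA71C above all 8 siRNA arrays on the sh arrays.

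In all, 9 of 70 members did not overlap between the sh arrays and the siRNA arrays at 48 h, beside 11.1% of all genes tested, 4 of them higher on the sh arrays. An unadjusted p under 0.05 was found for 10 members, 4 higher and 6 lower, beside 9.98% of genes. Both counts were near those of genes in general. The members' median was 0.04 and that of all genes 0.05. Of the 70 members, 38 had a positive difference, 54.3% against 56.1% of genes, and after centring every array on its median 24 did, 34.3% against 41.7% of genes. Without the 48 h arrays labelled siHOXB13 and siNC the medians were −0.03 for members and 0.06 for genes.

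The last comparison set shIBSP against shNC. SNORA70B was lower with both constructs, at 4.67 with shIBSP(1) and 4.69 with shIBSP(2) against 5.76 with shNC, a fitted −1.08 ± 0.46 (adjusted p = 1.00 by limma), at levels below the brightest background probe set. SNORA16B had 7.18 and 6.63 with shIBSP(1) and shIBSP(2), against 7.91 with shNC, and a fitted −1.01 ± 0.43. SCARNA7 was 14.38 and 13.67 against 14.72, and gave −0.70 ± 0.45. The 3 highest were SNORA36C with 1.09 ± 0.53, SNORA2A with 0.96 ± 0.49 and SNORA75 with 0.83 ± 0.43. SNORA36C had 6.32 and 7.68 against 5.91, so its difference came mostly from shIBSP(2).

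None of the 70 members and none of the genes (0%) passed the adjusted p with shIBSP, and 2 members, SNORA70B and SNORA16B, and 2.54% of genes had an unadjusted p under 0.05. With shIBSP(1), no member was at least 2-fold higher (0.506% of genes) and 1 at least 2-fold lower (1.6% of genes). With shIBSP(2), 4 were at least 2-fold higher, SNORA26, SNORA2A, SNORA36C and SNORA75 (0.988% of genes), and 3 at least 2-fold lower (4.87% of genes). The members' median was 0.06 and that of all genes −0.08. With quantile normalization the medians were 0.18 and 0.04, and with centring 0.18 and 0.04, so members and genes moved by about the same amount.

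Lists of proteins that work with these RNAs were read beside them. Of the H/ACA core, DKC1 was not named alone, and none of NOP10, NHP2 and GAR1 passed the adjusted p in any comparison. On the sh arrays, NOP10 differed by 0.60 ± 0.25 (adjusted p = 0.452), NHP2 by −0.50 ± 0.27 (adjusted p = 0.615), and GAR1 differed by 0.42 ± 0.26 (adjusted p = 0.678). With siHOXA11 the 3 differed by 0.56 ± 0.31, 0.41 ± 0.36 and −0.08 ± 0.33. With the 48 h arrays labelled siHOXB13 and siNC left out, NOP10, NHP2 and GAR1 had 0.30, −0.73 and 0.37 on the sh arrays and 0.30, 0.35 and −0.04 with siHOXA11. The 6 assembly factors (NAF1, SHQ1, RUVBL1, RUVBL2, PIH1D1 and RPAP3) gave no call. All 6 were lower at 48 h than at 24 h, beside 8220 of the 16808 genes, with a median of −0.30 against 0.01 for all genes. NAF1, the chaperone that precedes GAR1 on the particle, differed by 0.98 ± 0.49 with siHOXA11. It had 8.43 with siHOXA11 and 8.24 with siNC at 24 h, and 9.66 and 7.90 on the arrays labelled so at 48 h. Without the 2 arrays in doubt NAF1 had 0.51 with siHOXA11, and 0.60 between 48 h and 24 h, where its difference had been −0.04. RUVBL1 then had 0.08 between the times, where its difference had been −0.32, so the direction shared by all 6 rested on these arrays.

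PARN, the deadenylase that trims the 3′ ends of H/ACA RNAs and of the telomerase RNA, had the largest difference of these lists. It was 9.53 with siHOXA11 and 10.69 with siNC at 24 h, and 8.38 with siHOXA11 and 11.21 on the 48 h array labelled siNC, and ran between 10.69 and 11.77 on the other arrays. Both siHOXA11 arrays thus lay below the other 9. The fitted difference was −1.99 ± 0.44, with an adjusted p of 0.98, and −1.53 without the 48 h arrays labelled siHOXB13 and siNC. TERC, the telomerase RNA and itself an H/ACA RNA, lay between 4.19 and 5.18, TERT between 3.86 and 4.91, and WRAP53, which binds the Cajal body box of scaRNAs, between 4.40 and 4.84, so that all 3 stood below the filter.

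Of 13 Cajal body proteins, 12 were tested and none was called in any comparison. COIL, coilin, the scaffold of the Cajal body, had 10.80 with siHOXA11, 10.61 with siHOXA11-AS, against 11.28 with siNC, at 24 h, and 10.15 with siHOXA11, 10.24 with siHOXA11-AS and 11.32 on the 48 h array labelled siNC. The fitted differences were −0.82 ± 0.31 and −0.87 ± 0.31, with adjusted p of 0.98 and 1.00, and both share the siNC arrays. Without the 2 arrays in doubt COIL had −0.56 with siHOXA11 and −0.61 with siHOXA11-AS. GEMIN8 differed by 1.02 ± 0.43 with siHOXA11, and GEMIN5 by −0.96 ± 0.24 between 48 h and 24 h, both of the SMN complex that builds small nuclear ribonucleoproteins. GEMIN8 had 6.27 with siHOXA11 and 5.96 with siNC at 24 h, and 7.61 and 5.88 on the arrays labelled so at 48 h. Of 12 pseudouridine synthases that work without a guide RNA, PUS7 differed by 1.15 ± 0.36 with siHOXA11 and by −1.27 ± 0.55 with shIBSP, and none was called. Of the C/D core proteins FBL, NOP58 and SNU13 none was called, the largest difference being −0.67 ± 0.26 for NOP58 between 48 h and 24 h. Without the 2 arrays in doubt GEMIN8 had 0.54 and PUS7 1.14 with siHOXA11, and GEMIN5 had −0.98 and NOP58 −1.02 between the times.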

How the data were processed

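RNA was measured on 11 Clariom D arrays, and the authors deposited 1 linear intensity per probe set and array, summarised with Affymetrix Expression Console according to the submitters' processing notes. Its version, the normalization between arrays and the build are unknown from the sources used here, so no coordinates are printed. The log2 of each intensity was used with no further normalization. The 16808 brightest named genes by mean level (at least 4.9) were tested by moderated statistics of limma 3.58.1 (R 4.3.3), with Benjamini-Hochberg adjustment over all 16808. The siRNA comparisons used 8 arrays with treatment and time as terms (3 residual degrees of freedom), so their error is the disagreement between times. The sh comparison used 7 arrays (5 residual degrees of freedom), and shIBSP against shNC all 11 (4 residual degrees of freedom), with the single shNC array taken to vary like the others. The fits were tested on simulated data. The number of arrays limits the precision. The labels give 20 uM siRNA and the study's methods give the same number in nM.

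The text names the 10 brightest SNORA and 6 brightest SCARNA, the 3 highest and 3 lowest fitted differences per comparison, the widest ranges, the 3 dimmest members, called members, the H/ACA core and up to 3 further proteins per list. Members named only for a 2-fold difference at 1 time, a host or an unadjusted p were chosen after their values were seen. Alternatives changed the filter, the normalization, the choice of probe set, the test and the arrays kept. Members and lists were chosen with earlier results of these data known. RefSeq names are of GRCh38.p14. Figures used Python 3.11.15 with matplotlib 3.10.9.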

Additional observations from a re-analysis of the deposited data

Results flagged for a closer look

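SNORA40 went in opposite directions at the 2 times with siHOXA11, by at least 2-fold at each. It was 1.34 higher than siNC at 24 h, and at 48 h its difference from the array labelled siNC was −1.15. Each value compares 1 array with 1 array, and the difference between the times was not tested. The siNC array at 24 h held the lowest level of SNORA40 of the 11 arrays. The 48 h array labelled siNC is 1 of the 2 in doubt, and on the other, labelled siHOXB13, SNORA40 had 8.51. The level of SNORA40 was 8.46 with siHOXA11 and 7.12 with siNC at 24 h, and 7.64 with siHOXA11 and 8.79 on the 48 h array labelled siNC. Its probe set is one of 21 that carry this symbol and has no Entrez ID. No other member tested was at least 2-fold away from siNC in opposite directions at the 2 times with any of the 3 siRNAs.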

How the results depend on the processing

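The count of 0 members called held in 5 comparisons under each alternative run, with the methods' t-test (2 or 3 members at an unadjusted p under 0.05) run for 4 of them. For the sh arrays against 48 h siRNA arrays, the 1 call, SNORA38B, became 0 with no filter (difference −1.81), with quantile normalization (−1.86) and without the 48 h arrays labelled siHOXB13 and siNC (−2.18), and between 0 and 1 when single arrays were left out. The adjusted p of SNORA38B ran between 0.0293 and 0.296 over 14 alternatives, 5 of them past the threshold. Members above background on all arrays numbered 22 with the 95th percentile. No member median moved by more than the typical residual SD of a single member in 85 alternative values. That SD is larger than the medians themselves, so it is a loose limit, and medians turned on single arrays. When 1 array was left out they ran between 0.034 and 0.236 with siHOXB13, −0.028 and 0.186 with siHOXA11, and 0.033 and 0.305 with siHOXA11-AS. The lowest came each time without the siNC array at 24 h and the highest without the 48 h array labelled siNC. In 8 cases the difference of a single member changed sign. With siHOXB13, SNORA54 was 0.105 without the 48 h arrays labelled siHOXB13 and siNC, and between −0.843 and 0.001 when single arrays were left out, where the siNC array at 48 h gave the highest, and SNORA40 was between −0.300 and 1.956, where the siNC array at 24 h gave the lowest. SNORA15 was −0.017 with the mean of probe sets. With siHOXA11, SNORA67 was between −0.205 and 2.309 when single arrays were left out, where the siHOXA11 array at 48 h gave the lowest. Between the times, SCARNA9L was between −0.851 and 0.055, the highest without either siHOXA11 array. SNORA75 with shIBSP was −0.205 with the mean of probe sets. Fewer arrays and more genes tested are part of these settings, and otherwise the cause was not tested. Reading members only from probe sets with an Entrez ID, chosen after seeing the data, left 46 members tested and changed no count of calls. In the sh comparison the members' median then moved from 0.04 to −0.08, with 43.5% of members positive, against a median of 0.05 and 56.1% for genes. With siHOXA11-AS, 0 members then had an unadjusted p under 0.05 by limma. No paired analysis by replicate number was possible because the labels number no replicates. The only numbers, those of shIBSP(1) and shIBSP(2), are also those of different IBSP target sequences in the study's list of siRNAs. The siRNA comparisons were fitted with time as a term, which sets each array beside the siNC array of its time. The proteins of the lists were also fitted without the 48 h arrays labelled siHOXB13 and siNC, chosen after seeing the data, with no call. The recovery of RNAs this short by the extraction was not tested.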
